A study of Rattus norvegicus with 4 samples.

Results

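The 9 genes described here make superoxide or remove it and hydrogen peroxide, and they were followed in the retroperitoneal fat of lean and obese rats. They were Cybb, Cyba, Ncf1 and Ncf4 of the phagocyte NADPH oxidase, the superoxide dismutases Sod1, Sod2 and Sod3, the secreted glutathione peroxidase Gpx3 and catalase, Cat. Each was taken from the deposited array table as the row annotated with its symbol alone, and each had 1 such row, so that all 9 were found among the 14506 genes tested. Retroperitoneal fat is a visceral depot. The animals were untreated male rats of the WNIN/Ob strain, 4 months old and kept on stock diet, with 2 rats of the lean and 2 of the obese phenotype and 1 Affymetrix Rat Gene ST array per rat. The labels name phenotypes and give no genotype for either group, so the animals stand for a strain phenotype of 2 rats each.

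The phagocyte oxidase moves electrons from NADPH across a membrane to oxygen and so makes superoxide. Its catalytic chain, encoded by Cybb and also called NOX2, sits in the membrane with the chain encoded by Cyba, and cytosolic proteins, among them those of Ncf1 and Ncf4, join them with a Rac GTPase when the enzyme is switched on. Superoxide dismutases turn superoxide into hydrogen peroxide in the cytosol (Sod1), in mitochondria (Sod2) and outside the cell (Sod3). Catalase and the glutathione peroxidases then reduce hydrogen peroxide, and the glutathione system draws on NADPH as well. In fat, Cybb is known mainly from macrophages, while adipocytes express Cat, Gpx3 and the dismutases themselves.

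Values are the authors' intensities, and a difference is the mean log2 intensity of the obese rats less that of the lean rats. The 9 genes were above the array background on all 4 arrays, taken as the 95th percentile of 202 olfactory and vomeronasal receptor rows (4.41 to 5.23 on the log2 scale). All 15 measured adipocyte markers, of 17 listed, were above it too. Lean rat 1 stood apart in skeletal muscle markers: the summed intensity of 19 of them was 58642 in that rat and 812 to 1109.8 in the other rats, so the differences of the 9 genes are also given without lean rat 1. Lean rat 2 stood apart in its narrower distribution, with an interquartile range of 2.24 on the log2 scale against 2.63 to 2.77 in the other rats. Each group of 2 rats is small, and an exact two-sided permutation test of 2 against 2 cannot give a p below 0.333, so significance is judged by limma, which borrows information on variance across genes.

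None of the 9 genes passed limma's test at a Benjamini-Hochberg adjusted p of 0.05, where 0.841% of all genes did (0.772% higher and 0.0689% lower in the obese rats). At an unadjusted p under 0.05 there were 3 of them, Cybb and Cyba higher and Gpx3 lower, against 9.93% of all genes higher and 5.33% lower. The groups did not overlap for any of the 9, as for 47.7% of all genes: the obese pair was higher in 7 (26.4% of all genes) and lower in Sod3 and Gpx3 (21.3% of all genes). The gap between the groups was wider than the gap between the rats of either group for 3 of the 9 genes, Cybb, Sod2 and Gpx3, as for 15.9% of all genes. The median difference of the 9 genes was 0.60, and that of all genes was 0.00047.

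**Figure D1:**
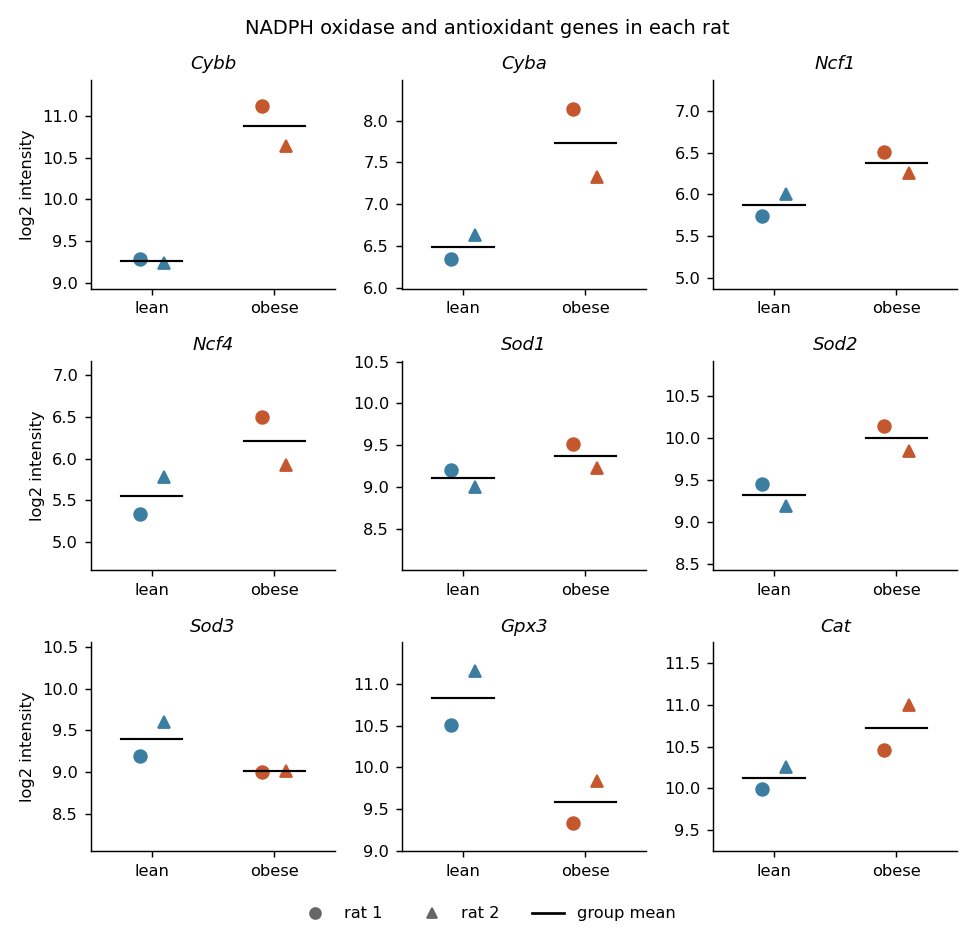
Log2 intensity of each of the 9 genes in each rat (circles rat 1, triangles rat 2, blue lean, red obese; bars are group means), with every vertical axis spanning the same range. The groups lie farthest apart in Cybb (9.27 lean, 10.9 obese on average), followed by Cyba (6.49 lean, 7.73 obese). Close to Cyba comes Gpx3, where the order is reversed (10.8 lean, 9.59 obese).

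Of the membrane chains, Cybb had the largest difference of the 9 genes. Its intensity was 625 and 607 in the lean rats and 2221 and 1599.6 in the obese rats. The lean rats were nearly alike, and both obese rats were far above them, obese rat 1 more so. The difference was 1.61 ± 0.32 (SE, n = 2 per group), or 3.06-fold, with a 95% interval of 0.87 to 2.35 and a limma adjusted p of 0.074. The difference was 1.63 without lean rat 1 and 1.59 without lean rat 2, and 1.38 and 1.85 without obese rat 1 and obese rat 2. Fits with a rat left out leave 1 rat in a group, so only the differences are given for single genes. Of all genes, 98.8% had a lower difference.

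Cyba, whose product anchors and stabilises the Cybb chain, was at 81.0 and 99.1 in the lean rats and at 281 and 160.3 in the obese rats. The groups did not overlap, but the obese rats differed from each other by 0.81 on the log2 scale, more than the gap of 0.69 between the groups. The difference was 1.24 ± 0.34 (2.37-fold, limma adjusted p = 0.165). Dropping lean rat 1 gave 1.10. Dropping obese rat 1 gave 0.84, and dropping obese rat 2 gave 1.65.

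The cytosolic subunits differed less. Ncf1, the organiser that brings the other cytosolic proteins to the membrane, was at 53.5 and 64.1 in the lean rats and at 90.6 and 76.6 in the obese rats. Its difference was 0.51 ± 0.26, with an interval from -0.082 to 1.10 and an adjusted p of 0.384, and it was 0.38 without lean rat 1. Ncf4, which binds a membrane phosphoinositide and supports oxidase activity on phagosomes, was at 40.3 and 55.0 in the lean rats and at 90.3 and 60.7 in the obese rats. The highest lean rat and the lowest obese rat were close, and the difference of 0.65 ± 0.30 (adjusted p = 0.343) was 0.37 without obese rat 1 and 0.43 without lean rat 1.

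The core promoters of the genes with the largest difference in each direction, and of those with a motif match, are shown as the 250 bases before the RefSeq gene start (assembly GRCr8, strand of the gene). Those of 7 of the 9 genes were in the table used. Capitals mark matches to TGACNNNGC, the core of the antioxidant response element bound by Nrf2, searched on both strands. The motif GAGGAAGT, a core bound by the myeloid factor PU.1, was searched in the same way.
Cybb, chrX:16065066-16065315, minus strand: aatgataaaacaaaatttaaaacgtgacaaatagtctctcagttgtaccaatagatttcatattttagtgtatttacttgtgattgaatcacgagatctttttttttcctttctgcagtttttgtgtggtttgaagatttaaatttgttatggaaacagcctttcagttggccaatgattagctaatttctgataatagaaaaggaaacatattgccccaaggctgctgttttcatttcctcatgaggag
Gpx3, chr10:39529085-39529334, plus strand: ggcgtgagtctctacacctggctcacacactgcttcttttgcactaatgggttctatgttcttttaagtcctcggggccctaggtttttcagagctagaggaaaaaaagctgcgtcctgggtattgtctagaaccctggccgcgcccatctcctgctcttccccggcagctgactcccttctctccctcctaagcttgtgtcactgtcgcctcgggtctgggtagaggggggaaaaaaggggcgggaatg
Ncf1, chr12:28121635-28121884, plus strand: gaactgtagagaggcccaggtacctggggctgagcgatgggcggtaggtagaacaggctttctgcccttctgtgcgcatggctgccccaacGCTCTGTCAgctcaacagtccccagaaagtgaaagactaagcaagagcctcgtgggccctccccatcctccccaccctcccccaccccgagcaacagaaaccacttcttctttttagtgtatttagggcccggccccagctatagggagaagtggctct
Sod2, chr1:50050169-50050418, minus strand: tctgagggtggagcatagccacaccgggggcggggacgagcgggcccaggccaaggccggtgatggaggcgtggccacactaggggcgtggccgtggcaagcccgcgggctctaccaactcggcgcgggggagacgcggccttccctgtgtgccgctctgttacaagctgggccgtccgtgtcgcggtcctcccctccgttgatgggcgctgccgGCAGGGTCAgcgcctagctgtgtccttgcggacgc
The antioxidant response element core was found in 2 of the 7 promoters (28.6%), those of Ncf1 and Sod2, and in 10.2% of 27457 promoters of the same length. Both matches were on the opposite strand, where they read TGACAGAGC in Ncf1 and TGACCCTGC in Sod2. GAGGAAGT was in none of the 7 and in 2.04% of all promoters. Only this exact form was searched, so variants of the PU.1 site were not counted. The Cybb promoter was poor in G and C (32.0%, against a median of 52.0% over all promoters), and that of Sod2 was rich in them (71.6%, with 26 CG dinucleotides). Letters in a window say nothing on binding.

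Other oxidase genes were measured in 12 of 15 listed entries. None passed the test. Of the 12, 4 (33.3%) lay above in both obese rats and 2 (16.7%) below, near the 26.4% and 21.3% of all genes. The median difference was 0.12, and it ran from 0.086 (without lean rat 1) to 0.22 (without obese rat 2), with 0.20 without lean rat 2. Rac2, the Rac GTPase of blood cells, was at 101 and 81.3 in the lean rats and at 287 and 181 in the obese rats. Its difference was 1.33 ± 0.32 (limma adjusted p = 0.123), with 1.66 without obese rat 2 and 1.00 without obese rat 1. Cybc1, a chaperone needed to assemble the Cybb and Cyba chains, was at 0.87 ± 0.28 (adjusted p = 0.229). Nox4, a constitutively active relative of Cybb found outside phagocytes, was at 50.4 and 38.3 in the lean rats and at 61.0 and 81.2 in the obese rats, a difference of 0.68 ± 0.27 (adjusted p = 0.298). Nox1 and Nox3 were not above background on any array.

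Some macrophage markers were higher in the obese rats as well. Of 24 measured, out of 25 listed, 7 rose by limma's test (0.772% of all genes rose) and none fell. Of the 24, 19 (79.2%, against 26.4% of all genes) lay above in both obese rats. Among the 7 that rose by the test were Itgb2, an integrin chain of leukocytes (3.39 ± 0.41), and Mpeg1, a pore-forming protein of phagocytes (2.71 ± 0.29). The median difference of the 24 markers was 1.43, and 1.37 without lean rat 1. Their summed intensity was 6386 to 6834 in the lean rats and 16493 to 24674 in the obese rats, none of the markers was at 0, and Trem2 alone was not above background on every array. In whole tissue, more cells of a type and more RNA per cell cannot be told apart. Centred on its own mean over the 4 arrays, Cybb stayed within 0.084 of the mean of the 24 markers in every rat, and its difference between the groups exceeded theirs (1.60) by 0.016. Cyba and Rac2 differed by 0.35 and 0.27 less than the marker mean.

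For Ncf1 and Ncf4 the same subtraction left values of 0.47 and 0.62 (Ncf1) and 0.30 and 0.64 (Ncf4) in the lean rats, and of -0.68 and -0.41 (Ncf1) and -0.45 and -0.50 (Ncf4) in the obese rats. Relative to the markers, both cytosolic subunits were thus lower in both obese rats, by 1.09 and 0.95. This is a ratio within arrays and shows unequal change alone. The markers themselves spread widely, from -0.11 (Marco) to 3.92 (Lyz2), and their part in the oxidase differences was not tested. Neutrophils and B cells carry the same oxidase. Neutrophil markers summed to 711 to 864 in the lean and 676 to 1015 in the obese rats with 3 of 15 above background on all arrays, and the 6 measured B cell markers summed to 151 to 206 and 133 to 169.9, with 2 above background on all arrays.

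**Figure D2:**
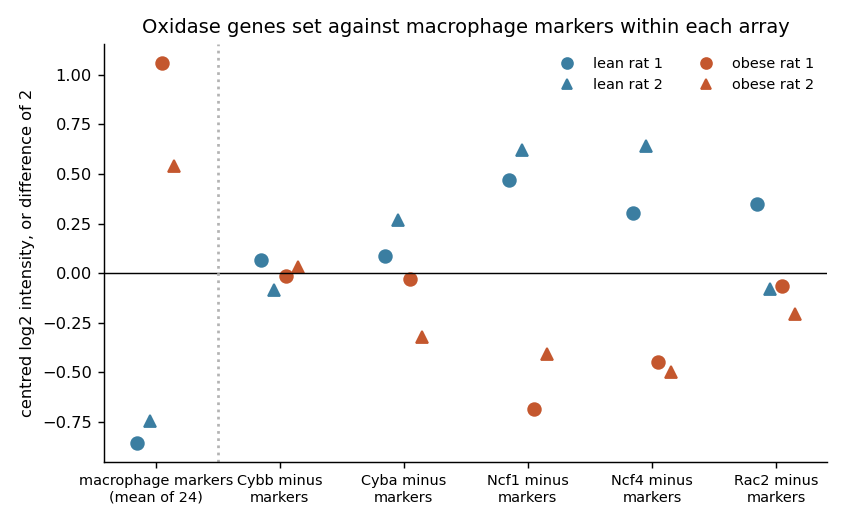
Left of the dotted line, the mean over 24 macrophage markers of log2 intensity centred on each gene's own mean over the 4 arrays. To the right, the centred value of each oxidase gene minus that mean, per rat. Cybb stays near 0 in all 4 rats, whereas Ncf1 and Ncf4 are above 0 in the lean rats and below it in the obese rats.

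Of the 3 superoxide dismutases, Sod1 and Sod2 had a positive and Sod3 a negative difference, none past the test. Sod2, the manganese enzyme of mitochondria, was at 699 and 586 in the lean rats and at 1136 and 921 in the obese rats. The gap between the groups, 0.40 on the log2 scale, was wider than that between the rats of a group (0.30 at most). The difference was 0.68 ± 0.31 (1.60-fold), with an interval from -0.046 to 1.40 and a limma adjusted p of 0.351. It was 0.80 without lean rat 1 and 0.55 without lean rat 2, and 0.53 and 0.83 without obese rat 1 and obese rat 2.

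Sod1, the copper and zinc enzyme of the cytosol, was at 589.8 and 512 in the lean rats and at 729.9 and 600.4 in the obese rats. The highest lean and the lowest obese rat were 0.026 apart, less than the spread within a group. Its difference of 0.27 ± 0.31 (adjusted p = 0.722) had an interval from -0.44 to 0.98. It was 0.37 without lean rat 1 and 0.17 without lean rat 2, and 0.13 and 0.41 without obese rat 1 and obese rat 2. Ccs, which loads copper into the Sod1 protein, was at 0.62 ± 0.25 (adjusted p = 0.293).

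Sod3, the extracellular enzyme bound to matrix, was at 585 and 777 in the lean rats and at 513 and 519 in the obese rats. The obese rats were alike, and lean rat 2 was the highest of the 4. The difference was -0.39 ± 0.31 (adjusted p = 0.597). It was -0.59 with lean rat 1 left out and -0.18 with lean rat 2 left out. Within each array, Sod2 stood higher relative to Sod3 in both obese rats than in both lean rats, by 1.06 on the log2 scale. That order follows from Sod2 being higher and Sod3 lower in both obese rats. It is a description over 4 rats with no test.

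Gpx3, the glutathione peroxidase released into plasma and tissue fluid, had the largest negative difference. It was at 1454 and 2275 in the lean rats and at 648 and 919 in the obese rats. Both obese rats lay below both lean rats, with a gap of 0.66 between the groups against 0.65 between the lean rats. The difference was -1.24 ± 0.36, or 2.36-fold lower in obese rats, with a 95% interval from -2.07 to -0.40 and a limma adjusted p of 0.191. Leaving out lean rat 1 gave -1.56, and leaving out lean rat 2 gave -0.91. Of all genes, 1.27% had a lower difference. Within each array, Gpx3 was lower relative to each of the other 8 genes in both obese rats than in both lean rats. Cybb was higher relative to each of the other 8. For Gpx3 this order follows from the groups not overlapping, except beside Sod3, which was also lower in both obese rats. For Cybb it follows in the same way beside Sod3 and Gpx3. Cybb and Gpx3 also had the largest differences in either direction, so these comparisons are descriptions only.

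**Figure D3:**
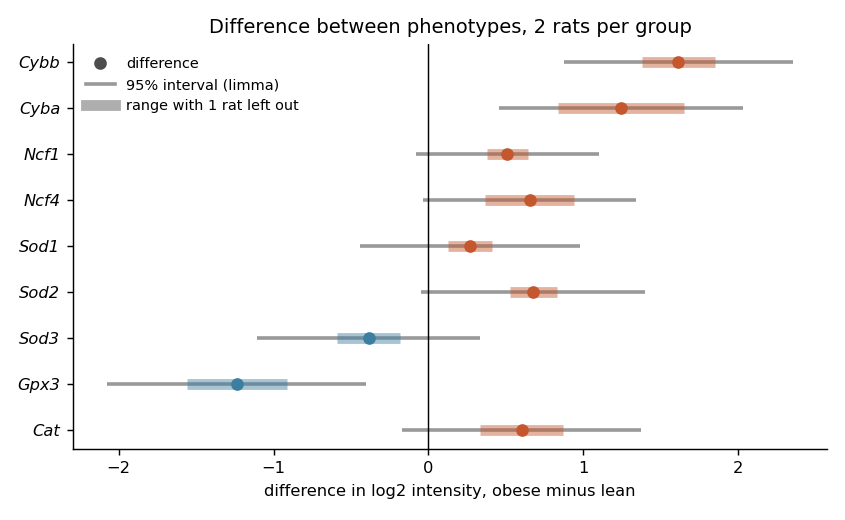
Difference in log2 intensity between obese and lean rats for the 9 genes (points), with limma's unadjusted 95% interval (grey lines) and the range when 1 of the 4 rats is left out (thick bars). The intervals of Cybb, Cyba and Gpx3 leave out 0, no gene passes after adjustment over all 14506 genes, and no bar crosses 0.

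The intracellular glutathione peroxidases Gpx1, Gpx2 and Gpx4 each lay higher in both obese rats, short of the threshold. Gpx1, the abundant cytosolic and mitochondrial form, was at 353 and 413 in the lean rats and at 1972.5 and 827 in the obese rats, a difference of 1.74 ± 0.44 (limma adjusted p = 0.133). Obese rat 1 was well above obese rat 2, and without obese rat 2 the gene passed (2.37, adjusted p = 0.0019), whereas without obese rat 1 it was at 1.12 (adjusted p = 0.613). Gpx4, which reduces lipid peroxides in membranes, was at 0.39 ± 0.29 (adjusted p = 0.563), and Gpx2 was at 0.70 (adjusted p = 0.220) but above background on only 2 arrays. Set against Gpx3 within arrays, Gpx1 was higher by 2.98 and Gpx4 by 1.63 in the obese rats. The direction follows from Gpx3 being lower, and Gpx1 and Gpx4 higher, in both obese rats. Of the 8 genes listed beside Gpx3 none passed, 4 (50.0%) lay above in both obese rats and 1 (12.5%) below. The median was 0.28, with 0.14 without lean rat 1 and 0.18 without obese rat 2.

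Cat, the haem enzyme of peroxisomes that splits hydrogen peroxide, was at 1019.7 and 1222 in the lean rats and at 1404 and 2043 in the obese rats. Both obese rats were above both lean rats, but the obese rats were 0.54 apart on the log2 scale and the groups 0.20. The difference was 0.60 ± 0.33 (limma adjusted p = 0.431). Leaving out lean rat 1 gave 0.47 and leaving out obese rat 2 gave 0.33, and the groups overlapped under quantile normalization. Red cells and adipocytes are both rich in catalase. The 6 measured erythrocyte markers, of 11 listed, summed to 4389 and 8173 in the lean rats and to 4408 and 1398 in the obese rats, and they were thus lowest in obese rat 2, where Cat was highest. The 15 adipocyte markers summed to 25998 and 25241 in the lean rats and to 31155 and 39414 in the obese rats. No marker of either list was at 0, Ahsp was not above background on every array, and their part in the Cat values was not tested.

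Peroxiredoxins and thioredoxins, the other main route of peroxide removal, lay mostly above in the obese rats. Of 20 measured genes, 15 (75.0%, against 26.4% of all genes) were higher in both obese rats and none was lower in both, with a median of 0.68. None passed the test, and 10 had a positive difference with an unadjusted p under 0.05, as did 9.93% of all genes. All of Prdx1 to Prdx6 were among the 15, including the cytosolic Prdx1 at 1.05 ± 0.31 (adjusted p = 0.189) and Prdx6, which also acts on phospholipid peroxides, at 1.05 ± 0.35 (adjusted p = 0.230). Msra, which repairs oxidised methionine, was at 1.13 ± 0.27 (adjusted p = 0.118). Txnip, the thioredoxin inhibitor, was at -0.13 ± 0.39 and turned to 0.30 without lean rat 1.

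Of 26 genes of glutathione synthesis, reduction and transfer, 11 (42.3%) lay above and 5 (19.2%) below in both obese rats, against 26.4% and 21.3% of all genes, and none passed. The median was 0.028, and 0.035 to 0.16 with a rat left out, highest without lean rat 1. Gsr, the reductase that restores glutathione at the cost of NADPH, was at 1.03 ± 0.30 (adjusted p = 0.189). Gsta4, a transferase for the lipid peroxidation product hydroxynonenal, was at -1.42 ± 0.30 (adjusted p = 0.084), and was above background on 3 arrays. Its difference ran from -1.77 without obese rat 1 to -1.08 without obese rat 2, with -1.62 without lean rat 1.

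Nrf2, encoded by Nfe2l2, activates many of these genes and is held down by Keap1. Nfe2l2 was at 0.22 ± 0.29 (adjusted p = 0.766) and Keap1 at 0.033 ± 0.27 (adjusted p = 0.969, and -0.081 with quantile normalization). Of 28 measured genes of the pathway, 15 (53.6%) lay above and 2 (7.14%) below in both obese rats, against 26.4% and 21.3% of all genes, and none passed. The median was 0.29, and 0.49 without lean rat 2. Those with the smallest p were Taldo1, an enzyme of the pentose phosphate pathway, at 1.66 ± 0.30 (adjusted p = 0.058), and the aldo-keto reductase Akr1b8 at 1.21 ± 0.25 (adjusted p = 0.079). Without lean rat 1 they were at 1.55 and 1.28. Nqo1, a classic Nrf2 target, was at 0.78 ± 0.28 (adjusted p = 0.256). Hmox1, the inducible haem oxygenase, was at 60.2 and 218 in the lean rats and at 153 and 314 in the obese rats, so its groups overlapped (0.93 ± 0.60, adjusted p = 0.492). Its value rested on single rats, at 0.0067 when lean rat 1 was dropped and 1.86 when lean rat 2 was. Dropping obese rat 1 gave 1.46, and dropping obese rat 2 gave 0.41.

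NADPH feeds both the oxidase and the reductases. Of 10 measured supply genes, 6 lay above and 1 below in both obese rats, against 26.4% and 21.3% of all genes, and none passed. The median was 0.42, and 0.70 without lean rat 1. The largest difference in this list and in the Nrf2 list was that of the cytosolic malic enzyme gene Me1, at 2.21 ± 0.47 (adjusted p = 0.089). Among the other malic enzymes, Me2 was at 1.52 ± 0.30 (adjusted p = 0.074) and Me3, above background on 3 arrays, at -1.15 ± 0.22 (adjusted p = 0.071). Me2 was at 1.81 without lean rat 1 and at 1.23 without lean rat 2. Me3 was at -1.10 without lean rat 1 and at -1.20 without lean rat 2.

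**Figure D4:**
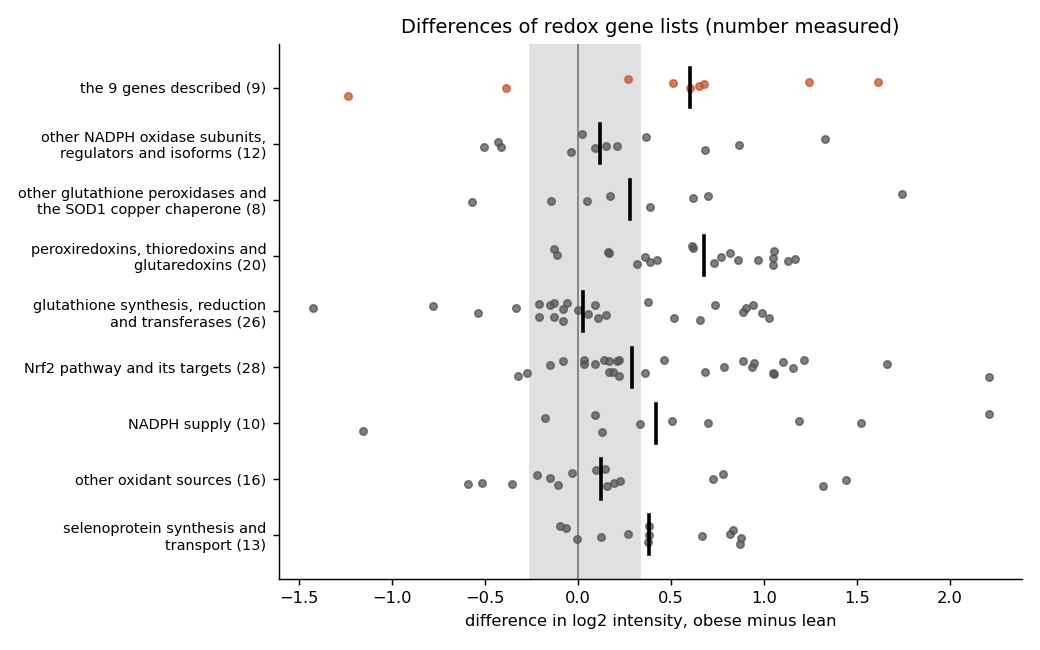
Differences in log2 intensity (obese minus lean) of every measured gene of each redox list, with the list's median as a black bar. The grey band holds the middle of all 14506 genes, from the lower quartile (-0.26) to the upper quartile (0.33), around their median of 0.00047. The medians of the 9 genes described (0.60), the peroxiredoxin list (0.68), the NADPH supply list (0.42) and the selenoprotein list (0.38) lie to the right of the band. With a rat left out, the NADPH supply median reaches down to 0.327 (without obese rat 2) and the selenoprotein median to 0.23 (without lean rat 2), both inside it.

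The genes whose profiles over the 4 arrays were closest to that of Cybb, by Euclidean distance between log2 values centred on each gene's own mean, were Tec, Atp8b4 and RGD1559575, at distances of 0.062, 0.14 and 0.14, where Cybb itself spread by 1.65. Tec is a tyrosine kinase of blood cells and Atp8b4 a phospholipid flippase. Their differences were 1.59, 1.65 and 1.57, and the likeness to that of Cybb follows from how they were chosen. All 3 passed limma's test narrowly (adjusted p = 0.041, 0.041 and 0.042), which is no separate support for Cybb. The SE was 0.26, 0.27 and 0.26 for these genes and 0.32 for Cybb. Without obese rat 1 the differences of the 3 were 1.39, 1.41 and 1.39. None of the 3 passed after quantile normalization (adjusted p = 0.057, 0.053 and 0.063), without a variance trend (adjusted p = 0.051, 0.052 and 0.052) or over all rows (adjusted p = 0.076, 0.079 and 0.081). Closest to Cat were Irak1, a kinase of interleukin-1 signalling, at a distance of 0.011, Dnajc25 at 0.047 and the olfactory receptor gene Or6c6h at 0.075, which was not above background on any array. With 4 arrays and 14506 genes, close profiles are common, and these are descriptions only.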

How the data were processed

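The arrays were summarised by RMA, per the submitters' processing notes. The table deposited by the authors gives one intensity per row and array, taken as linear because values run from 2.03 to 12791. The deposited arrays are not equal in distribution: median intensities run from 39.9 to 44.5. Its software and version are not given here. By the platform annotation, 15310 of 29214 rows had 1 symbol, 323 several and 13581 none. For 527 genes with several rows the row with the highest mean was kept, leaving 14506 genes. From the deposited intensities, log2 values with no pseudocount were tested by limma 3.58.1 in R 4.3.3 (lmFit, eBayes with a mean-variance trend, no covariates), adjusted by Benjamini-Hochberg over all genes. Groups came from the sample titles, each sample a separate rat.

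The 9 genes, the 8 redox lists and the 9 marker lists were chosen with earlier results of these data known. Named list genes are called genes or, where fewer than 2 were called, those with the smallest p, plus a fixed set. Prdx2 to Prdx5, Me1, Nox1, Nox3, Nos3 and the individual cell type markers were named after their values were seen. The fit was tested on simulated data. Promoter coordinates are those of RefSeq's GRCr8. Alternatives were each rat left out, a block on rat number, a looser threshold, a filter on dim genes, other row rules, array weights, variance models without a trend or robust, and scaling by quantiles or medians. A wider set of background rows and the macrophage count under each setting were added after seeing the data. Figures were drawn with matplotlib 3.10.9.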

Additional observations from a re-analysis of the deposited data

How the results depend on the processing

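The number of arrays, 2 per group, limits the precision. The 9 genes kept their direction under every alternative run. Of the 9, 1 was called higher (Cybb, at 1.61) with the rat number as a block (adjusted p = 0.033), with robust variances (adjusted p = 0.043) and at a threshold of 0.10. With a rat left out, the difference of Cybb ran from 1.38 to 1.85. Over the alternatives that kept every rat, its limma adjusted p ran from 0.033 to 0.108. None was called lower under any alternative. Quantile normalization left 5 of the 9 with both obese rats above (Sod1 at 0.079 and Cat overlapped). Over all genes, 122 were called, but 327 with the block, 262 with the robust model, 75 with quantile normalization, 185 of all rows, and 268 to 1081 with a rat left out. The calls were 91.8% higher in obese rats, against 48.1% over all rows and 40.9% without lean rat 2. Macrophage markers called numbered 7, and 5 to 13 under the alternatives.

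The rat numbers gave no sign of pairing: deviations of same-numbered rats from their group means correlated at 0.020 across genes. With 2 rats per group, the value for differently numbered rats is the same with its sign reversed (-0.020) and adds nothing. The block on the number raised the share of all genes called from 0.841% to 2.25%. With it, 1 of the further glutathione peroxidases (Gpx1) and 1 of the glutathione list were called. So were 2 of the Nrf2 list and 3 of the NADPH supply list, which share genes such as Me1. With a rat left out, the called genes were 0 to 1 of the further oxidase genes, 0 to 1 of the further glutathione peroxidases, 0 to 3 of the glutathione list, 1 to 3 of the Nrf2 list, 1 to 4 of the NADPH supply list, 0 to 2 of the oxidant sources and 0 to 1 of the selenoprotein list. Keap1 turned to -0.081 after quantile scaling. Leaving rats out, it ran from -0.085 (lean rat 2) to 0.15 (lean rat 1), with -0.043 without obese rat 1. Txnip ran from -0.56 without lean rat 2 to 0.30 without lean rat 1, with 0.13 without obese rat 2. The cause was not tested.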

Other observations

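Other enzymes that make oxidants were measured in 16 of 18 listed entries. None passed limma's test, and 4 of the 16 lay above and 2 below in both obese rats, smaller shares than the 26.4% and 21.3% of all genes. The median difference was 0.12, and its direction turned without lean rat 1 (-0.056) and without obese rat 2 (-0.081), with 0.25 without lean rat 2. The monoamine oxidases, which release hydrogen peroxide from the outer mitochondrial membrane, had the smallest p. Maob was at 73.4 and 59.9 in the lean rats and at 139.7 and 195 in the obese rats (1.32 ± 0.29, adjusted p = 0.099). Its difference was 1.46 without lean rat 1 and 1.17 without lean rat 2. Maoa was at 381 and 161 in the lean rats and at 746 and 605 in the obese rats (1.44 ± 0.43, adjusted p = 0.200). Its difference was 2.06 without lean rat 1 and 0.82 without lean rat 2. The endothelial nitric oxide synthase gene Nos3 was at -0.59 (adjusted p = 0.342), and the 13 measured endothelial and smooth muscle markers, whose median was -0.74, summed to 6864 and 3627 in the lean rats and to 2787 and 2709.7 in the obese rats.

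Gpx3 is a selenoprotein, and genes that make or carry such proteins were listed too. Of 13 measured, out of 16 listed, 7 (53.8%) lay above in both obese rats and none below, against 26.4% and 21.3% of all genes, and none passed. The median was 0.38, and 0.23 without lean rat 2. Scly, which recovers selenium from selenocysteine, was at 0.88 ± 0.26 (adjusted p = 0.197) and Selenom at 0.87 ± 0.33 (adjusted p = 0.275). Selenom was at 0.43 without obese rat 1 and at 1.31 without obese rat 2.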
